A study of Bos taurus with 6 samples.

Results

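A set of 9 bovine miRNA names, bta-miR-1246, bta-miR-1260b, bta-miR-2478, bta-miR-2904, bta-miR-2887, bta-miR-1248, bta-miR-1291, bta-miR-664a and bta-miR-664b, were examined in cultured granulosa cells. They are names that are known or suspected to collect fragments of other noncoding RNAs, and the 9 were taken from the 1028 miRNAs listed in each library. No other arm of any of them was listed. The names were chosen by what they resemble, and the rule itself held no measured value. The levels and heat differences of bta-miR-1246 and bta-miR-2904 in these libraries were, however, known when the set was drawn up. These 2 therefore count as selected on their values, and no p-value is given for either. The other names were also listed with earlier results of these data known. Their p-values and counts are therefore not free of that choice. bta-miR-1246 and bta-miR-2904 enter the sums, ranks, shares of variation and likeness lists as a description, and the planned counts over all members. None of these uses supports anything about either name.

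Granulosa cells are the follicular cells that surround the oocyte. They were aspirated from bovine follicles of 3 to 6 mm collected at a slaughterhouse, grown for 24 h with exosome-depleted serum, and then divided: control cells stayed at 37 °C for a further 24 h, while heat-stressed (HS) cells were moved to 42 °C. Each temperature had 3 libraries, which the labels number 1 to 3 and the series text calls biological replicates. The labels leave unsaid whether libraries of the same number share a collection of cells. Values below are given in the order of replicates 1, 2 and 3. Animal age, breed and number were not given in the sources used here.

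A miRNA is cut from a hairpin precursor by Drosha and Dicer and guides Argonaute to partly complementary mRNAs. Small RNA libraries also take up fragments of abundant structured RNAs, and a fragment whose sequence is close to an annotated miRNA can be counted under its name. bta-miR-1246 resembles a stretch of U2, a spliceosomal small nuclear RNA. bta-miR-1260b and bta-miR-2478 resemble transfer RNA (tRNA), which carries amino acids to the ribosome. bta-miR-2904 and bta-miR-2887 are suspected to resemble ribosomal RNA (rRNA). bta-miR-1248, bta-miR-1291, bta-miR-664a and bta-miR-664b carry names of miRNAs whose hairpins are related to H/ACA small nucleolar RNAs (snoRNAs), which guide pseudouridylation of other RNAs. The deposited values hold a total per name and no read sequences, so which RNA each read came from was not tested.

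The gene positions of 8 of the 9 names were found in the RefSeq annotation (assembly ARS-UCD2.0), and bta-miR-2904 was not matched. This is not the assembly used for mapping, so only neighbouring genes are named. Genes of 5 names overlapped a protein-coding gene. MIR664A overlapped DKC1, which encodes dyskerin, the pseudouridine synthase of H/ACA particles, and MIR664B overlapped RAB3GAP2, a regulator of Rab GTPases. MIR1291 overlapped KANSL2, in which 2 snoRNA genes are annotated. Of the 2 copies of MIR1248, MIR1248-1 overlapped EIF4A2, a translation initiation helicase gene with 3 annotated snoRNA genes, and MIR1248-2 overlapped MYO5A, a myosin gene. No snoRNA gene was annotated in DKC1, RAB3GAP2 or MYO5A (0 each). MIR1260B overlapped MAML2, a Notch coactivator gene. MIR2887 also had 2 copies, of which MIR2887-2 overlapped a pseudogene. How reads were shared between copies, or between a miRNA and a host transcript, was not given in the sources used here, and the values of these names carry that uncertainty.

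The recovered depth was 2076239 to 4590971 reads per library, and control replicate 1 was the shallowest. Values are CPM, the reads of a name relative to a library size that was scaled by the TMM method (trimmed mean of M-values), and are called normalized CPM. They are relative levels, so fewer cells of a type and less RNA per cell cannot be told apart. No miRNA marks granulosa cells alone. The gonad-enriched bta-miR-202 was present at 1309 to 2749 normalized CPM. Of the red blood cell miRNAs, bta-miR-451 stayed at or below 2.65 and bta-miR-144 at or below 0.272, while bta-miR-486 reached 60.1. The leukocyte miRNAs bta-miR-142-5p and bta-miR-223 summed to 574.2 to 687.9 in control and 443.6 to 657.6 in HS cells. The muscle miRNAs bta-miR-1, bta-miR-206 and bta-miR-133a summed to 55.2 to 245.1 and 61.1 to 199.3. The neuronal bta-miR-124a was at 0 in every library, while bta-miR-9-5p, the other neuronal miRNA with values, was at 41.5 to 90.2 normalized CPM.

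To show how much of each library these names held, their levels were first compared with all listed miRNAs. The 9 names together took 1.32%, 0.467% and 0.39% of the reads at 37 °C, against 1.17%, 0.416% and 0.309% at 42 °C. Replicate 1 was the highest in both groups. The summed level was 7300 ± 5300 normalized CPM at 37 °C and 6425 ± 4969 at 42 °C (mean ± SD, n = 3 per group), a difference well within the spread between replicates. bta-miR-1246 made up 85.5%, 75.9% and 50.9% of the summed level at 37 °C, against 81.9%, 66.7% and 47.4% at 42 °C. It was most of the sum in every library but HS replicate 3, and it ranked 32 of the 1028 names by mean level. bta-miR-2478 ranked 75, bta-miR-2887 ranked 115 and bta-miR-1260b ranked 117. bta-miR-2904, bta-miR-664b and bta-miR-1291 were low, with ranks of 220, 274 and 289.

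Of the 9 names, 2 were too scarce to pass the filter on low reads. For bta-miR-1248 there were 2, 6 and 5 reads at 37 °C, against 7, 2 and 7 at 42 °C. For bta-miR-664a there were 4, 2 and 1 reads at 37 °C, against 2, 2 and 2 at 42 °C. A count of 3 reads, taken here as the floor of counting error, corresponds to 0.639 to 1.46 normalized CPM, so no difference was detectable for bta-miR-664a at this depth and no fold is given for either. The other 7 names passed the filter, and 365 miRNAs passed it in all.

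**Figure D1:**
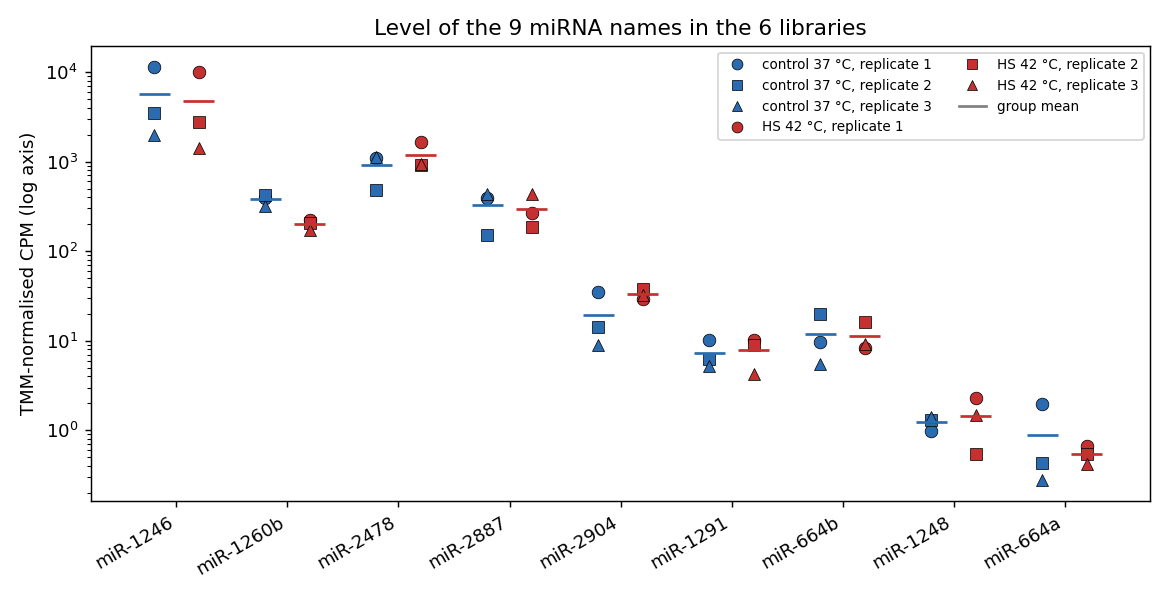
Level of each of the 9 names in every library, in TMM-normalized CPM on a log axis, with control libraries in blue, HS libraries in red, replicate numbers as marker shapes and group means as short lines. bta-miR-1246 spans 1431 to 11464 with replicate 1 on top in both groups, while for bta-miR-1260b all 3 HS libraries lie below all 3 control libraries.

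The U2-like name was compared first for its spread. bta-miR-1246 had 11464, 3503 and 1977 normalized CPM at 37 °C, against 9938, 2754 and 1431 at 42 °C. In both groups replicate 1 was the highest and replicate 3 the lowest, and the groups overlapped. The highest library held 8.01 times the level of the lowest. Within a group the SD was 1.36 log2 units, against 0.0135 that counting error alone would give on 6722 to 29950 reads. The libraries come from separate samples, and the SD of all tested miRNAs was also above counting error, with medians of 0.266 and 0.100. Only 3 of the 365 tested miRNAs had a larger SD, which is a description, since the levels of bta-miR-1246 were known beforehand.

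The same order of replicates was seen for miRNAs of other tissues. bta-miR-122, a liver miRNA, had 71.8, 54.3 and 17.3 normalized CPM at 37 °C, against 72, 49.5 and 20.4 at 42 °C. The red blood cell miRNAs summed to 52.7, 30 and 12.5 in control and to 62.7, 50.6 and 20.9 in HS libraries, and most of this was bta-miR-486. The leukocyte and muscle sums did not have this order. In the study's mapping summary, replicate 1 had the lowest share of reads assigned to annotated miRNAs in both groups. Its share mapped to the genome was the highest in both. The part of these mapping shares, or of liver or blood cell RNA, in the spread of bta-miR-1246 was not tested. By group means, bta-miR-1246 was at 5648 ± 5095 at 37 °C and 4707 ± 4578 at 42 °C (mean ± SD, n = 3 per group), and the difference of the log2 means was -0.34 ± 0.848 (SE). Between libraries of the same number, which were not taken as pairs, the log2 differences were -0.21, -0.35 and -0.47. The group means differed by far less than the libraries within a group, and their difference turned to 0.37 without control replicate 1 and to 0.28 without HS replicate 3.

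Of the tRNA-like names, bta-miR-1260b was the lower. It had 396, 427.1 and 317.6 normalized CPM at 37 °C, against 222.3, 205.9 and 172.6 at 42 °C. Every HS library was below every control library. The mean fell from 380.2 ± 56.4 at 37 °C to 200.3 ± 25.3 at 42 °C (mean ± SD, n = 3 per group), so the control mean was 1.90 times the HS mean. The log2 fold change was -0.92 ± 0.177 (SE), with a limma adjusted p of 0.0528 over all 365 miRNAs and a 95% interval of -1.34 to -0.50. Between libraries of the same number, which were not taken as pairs, the log2 differences were -0.83, -1.05 and -0.88. This was past the adjusted p of 0.2 that the study used, but not past its fold change minimum, a log2 of 1. It rested on 670 to 1966 reads per library. Leaving out HS replicate 2 or HS replicate 3 raised the adjusted p to 0.221 and 0.228, with log2 fold changes of -0.94 and -0.82.

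bta-miR-2478 was more abundant and more variable. It had 1095, 487.1 and 1136 normalized CPM at 37 °C, against 1650, 916.2 and 939.9 at 42 °C. The groups overlapped, with control replicate 2 the lowest and HS replicate 1 the highest library. The log2 fold change was 0.41 ± 0.384 (SE, limma adjusted p = 0.744), with a 95% interval of -0.50 to 1.32. It was 0.011 without control replicate 2, 0.13 without HS replicate 1 and 0.62 without control replicate 3. The ratio of bta-miR-2478 to bta-miR-1260b was 2.77, 1.14 and 3.58 at 37 °C, against 7.42, 4.45 and 5.45 at 42 °C. This ratio was chosen after the values were seen and was not tested. The summed level of both names was 1286 ± 322.9 at 37 °C and 1369 ± 436 at 42 °C (mean ± SD, n = 3 per group), a difference within the spread between replicates.

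Of the rRNA-like names, bta-miR-2904 was the lower. It had 35.2, 14.1 and 8.92 normalized CPM at 37 °C, against 29.5, 37.5 and 32.4 at 42 °C. Control replicates 2 and 3 were below all HS libraries, and control replicate 1 was within their range. The highest control library was 3.94 times the lowest, against 1.27 times in HS cells. The difference of the log2 means was 0.95 ± 0.453 (SE), on 32 to 152 reads per library. It was 1.47 without control replicate 1 and 0.54 without control replicate 3. Between libraries of the same number the differences were -0.24, 1.35 and 1.75.

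bta-miR-2887, the more abundant of the rRNA-like names, had 392.5, 153.2 and 430.5 normalized CPM at 37 °C, against 265.5, 186.3 and 430.4 at 42 °C. Replicate 2 was the lowest and replicate 3 the highest in both groups. The log2 fold change was -0.09 ± 0.464 (SE, limma adjusted p = 0.959), with a 95% interval of -1.19 to 1.01. A change by a log2 of 1 in either direction lies inside that interval. The fold change turned to 0.11, 0.18 and 0.19 without control replicate 1, control replicate 3 and HS replicate 2. The ratio of bta-miR-2887 to bta-miR-2904 ran from 10.8 to 48.3 in control and from 4.96 to 13.3 in HS libraries.

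The snoRNA-related names were low, and neither of the 2 that were tested passed the threshold. bta-miR-1291 had 10.3, 6.3 and 5.29 normalized CPM at 37 °C, against 10.3, 8.97 and 4.26 at 42 °C, on 19 to 33 reads. Replicate 1 was the highest and replicate 3 the lowest in both groups. Its log2 fold change was 0.06 ± 0.367 (SE, limma adjusted p = 0.964, 95% interval -0.80 to 0.93). It lay between -0.15 and 0.40 when single libraries were left out.

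bta-miR-664b had 9.76, 20 and 5.57 normalized CPM at 37 °C, against 8.3, 16.3 and 9.15 at 42 °C, on 20 to 92 reads. Replicate 2 was the highest in both groups. Its log2 fold change was 0.05 ± 0.459 (SE, limma adjusted p = 0.972, 95% interval -1.04 to 1.13), and it ran from -0.35 to 0.49 when single libraries were left out. The sum over the 4 snoRNA-related names was 21.2 ± 7.9 at 37 °C and 21.1 ± 5.54 at 42 °C (mean ± SD, n = 3 per group).

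**Figure D2:**
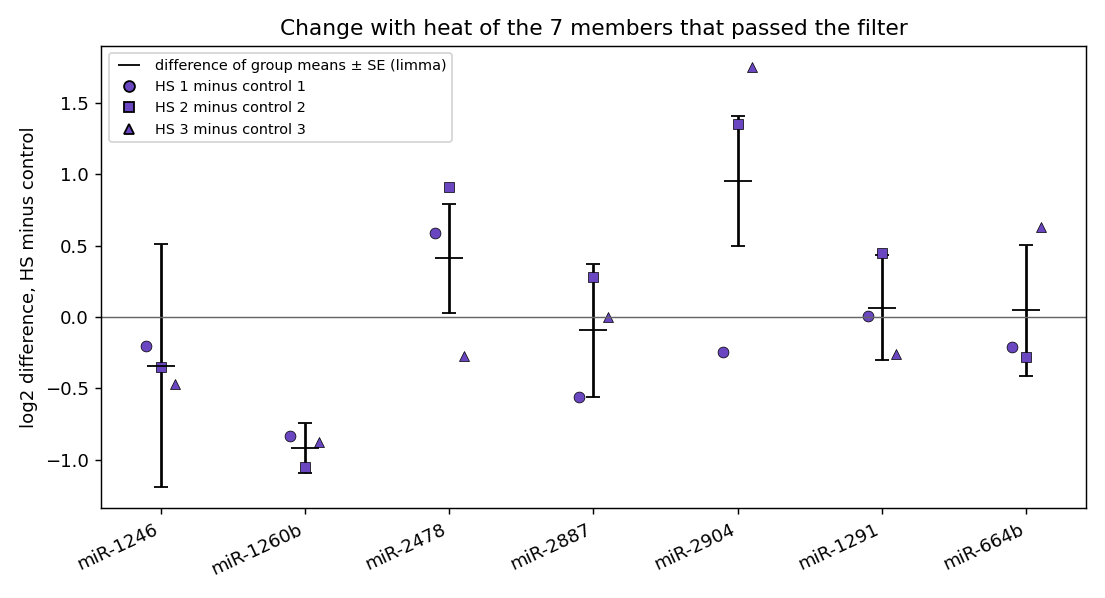
Log2 difference, HS minus control, for the 7 names that passed the filter. Black dashes with bars give the difference of group means ± SE from limma, and purple markers give each HS library minus the control library of the same number. All 3 markers of bta-miR-1260b lie between -1.05 and -0.83, and those of bta-miR-2904 run from -0.24 to 1.75.

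Leaving aside bta-miR-1246 and bta-miR-2904, 5 names were tested, and 1 of them (also 1 of all 7) had an adjusted p of at most 0.2 (limma), bta-miR-1260b, which was lower in HS cells. Of all 365 tested miRNAs, 7.12% passed this threshold, 4.11% in the lower direction. None of the 5 passed it with a log2 change of 1 or more in either direction, against 3.01% of all tested, and none had an adjusted p under 0.05, against 2.19%. In edgeR's quasi-likelihood fit to the recovered reads bta-miR-1260b was also the single one of the 5 at an adjusted p of at most 0.2 (0.0613). For 1 of the 5 names every HS library lay outside the control range on the same side, against 20% of all tested miRNAs in either direction and 10.4% lower in HS cells. The median log2 fold change was 0.05 for the 5 names, also 0.05 with bta-miR-1246 and bta-miR-2904 included, and -0.0015 for all 365. With so few names these shares are a description.

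To place the spread, the SD between replicates within a group was compared with that of all tested miRNAs. It was 0.594 log2 units for bta-miR-2478, 0.721 for bta-miR-2887, 0.684 for bta-miR-2904, 0.686 for bta-miR-664b and 0.52 for bta-miR-1291. The median over all 365 was 0.266, and 6 of the 7 names that passed the filter were above it, or 4 of 5 without bta-miR-1246 and bta-miR-2904, whose values were known beforehand. The exception was bta-miR-1260b, at 0.205. Levels bear on this measure, since low miRNAs carry more counting error. Of the 161 tested miRNAs with a mean of at least 100 normalized CPM, 98.1% had a smaller SD than bta-miR-1246, 93.8% a smaller one than bta-miR-2887, 90.7% a smaller one than bta-miR-2478 and 48.4% a smaller one than bta-miR-1260b. Of the 204 miRNAs below that level, 88.7%, 89.2% and 78.9% had a smaller SD than bta-miR-2904, bta-miR-664b and bta-miR-1291. For bta-miR-1246 and bta-miR-2904 these shares are a description, as the values of both were known beforehand. Counting error alone would give 0.293 for bta-miR-1291 and 0.257 for bta-miR-664b, so a larger part of their spread can be counting error than for bta-miR-2887, with 0.0475.

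**Figure D3:**
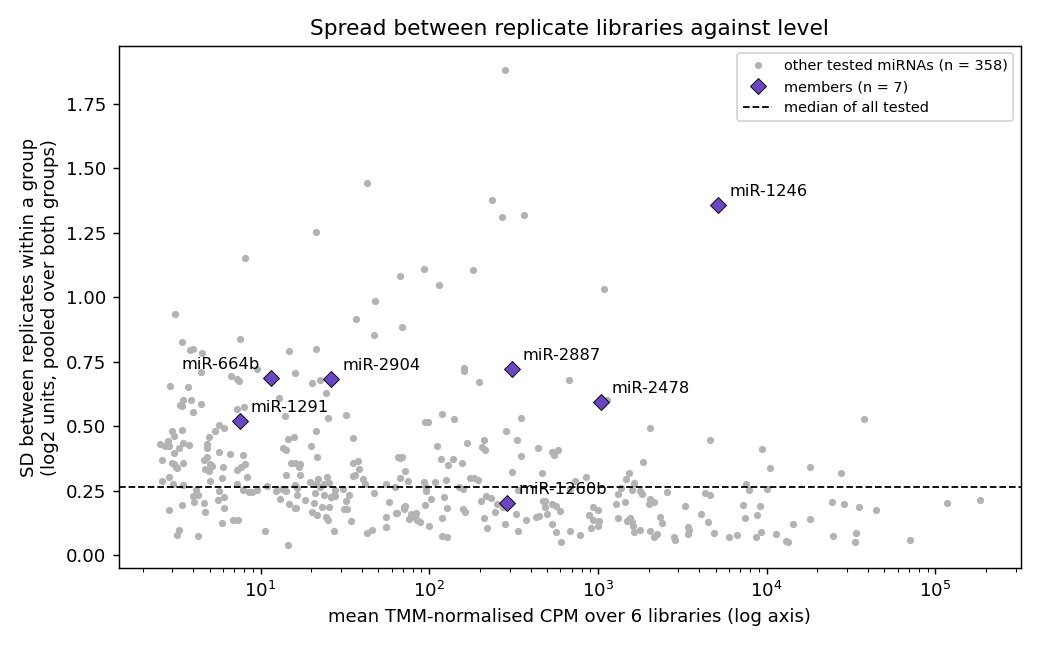
SD between replicate libraries within a group, in log2 units and pooled over both groups, against the mean level on a log axis for all 365 tested miRNAs. The 7 names that passed the filter are purple diamonds, other miRNAs are grey, and the dashed line is the median SD of 0.266, with bta-miR-1246 at 1.36 and bta-miR-1260b at 0.205.

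The variation over the 6 libraries was then split by the labels into temperature, replicate number and rest. Replicate number held 97.5% of the sum of squares of bta-miR-1246, 90.6% of that of bta-miR-2887, 87.6% for bta-miR-1291, 86.4% for bta-miR-664b and 62.3% for bta-miR-2478. These 5 of 7 names were above 50%, or 4 of 5 without bta-miR-1246 and bta-miR-2904. Of all tested miRNAs, 37.3% were above 50%, and the median share was 38.5%. Temperature held 88.3% of the sum of squares of bta-miR-1260b, against a median of 16.5%. It held 42.1% of that of bta-miR-2904, whose heat difference was known beforehand, so this share is a description. The replicates had the same order in both groups for 3 of 7 names, bta-miR-1246, bta-miR-2887 and bta-miR-1291, or 2 of 5 without bta-miR-1246 and bta-miR-2904, against 20.5% of all tested miRNAs. The orders themselves differed: replicate 3 was the lowest for bta-miR-1246 and bta-miR-1291 but the highest for bta-miR-2887, and replicate 2 was the highest for bta-miR-664b. What a replicate number stands for, and its part in these levels, was not tested.

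**Figure D4:**
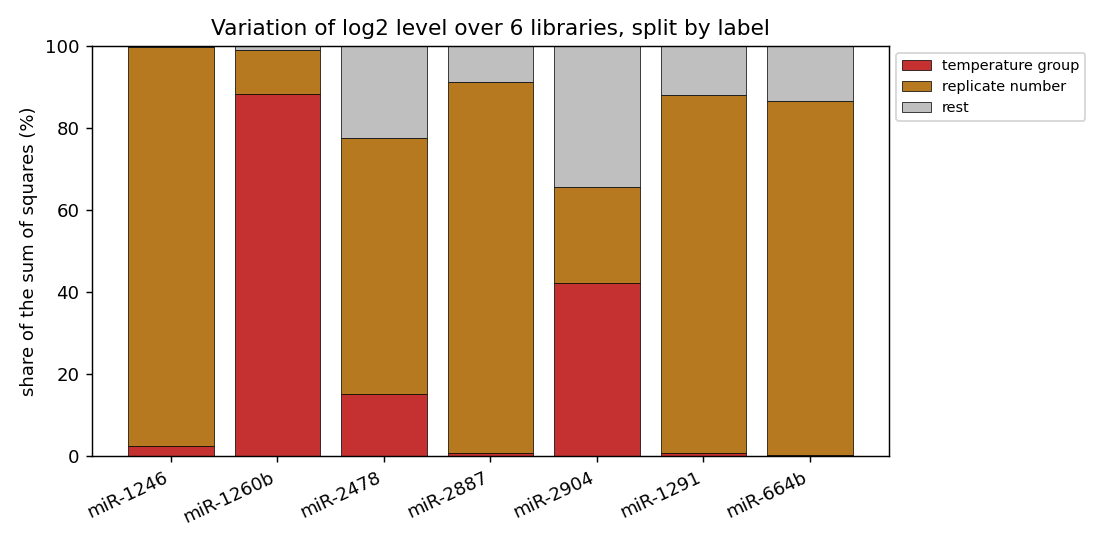
Share of the sum of squares of the log2 level over 6 libraries held by temperature group (red), replicate number (brown) and the rest (grey), as stacked bars from 0 to 100% for the 7 names that passed the filter. Replicate number holds 97.5% for bta-miR-1246 and temperature 88.3% for bta-miR-1260b.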

How the data were processed

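Small RNA libraries with unique molecular identifiers were prepared from 6 samples of granulosa cells. Per the submitters' processing notes and the study's methods, the authors trimmed reads with Cutadapt 1.11, collapsed identical identifiers, mapped with Bowtie2 2.2.2 to UMD3.1, assigned reads to miRBase names and normalized by TMM in edgeR. The deposited signal is TMM-normalized CPM, with 1 value per miRNA and library. In every library 100% of values were whole multiples of 1 step (tolerance 0.01 of a read), which gave whole reads.

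HS and control were compared with limma 3.58.1 (with trend, R 4.3.3) on log2(value + 1), after edgeR 4.0.16 filterByExpr on the recovered reads, with Benjamini-Hochberg adjustment over 365 miRNAs. This log2 scale understates changes of low miRNAs. SDs within a group were pooled over both groups, and sums of squares came from a balanced split by temperature and number. In simulated reads, 190 of the 353 tested miRNAs were changed, whereas 26 of 365 were called in the data. Of those changed by a log2 of 1, 87.2% were recovered, and of those changed by 2, 100%. Of the calls, 10.6% were false, and 1 call was made when nothing was changed. Recovery and false calls depend on the part that is changed, so these shares do not carry over to the data. No replicate pair agreed within sampling noise (chi-square per degree of freedom 86.8 to 446.5). Intervals and floors cover counting error only where they come from reads. The 9 names and all lists were chosen with earlier results of these data known. Calls were counted over all members, as planned, and also, by a choice made after the values were seen, without bta-miR-1246 and bta-miR-2904. For likeness, the 3 tested miRNAs with the smallest root-mean-square difference of centred log2 levels were named for bta-miR-1246, bta-miR-1260b and bta-miR-2904. Alternatives were other pseudocounts, scalings, filters and tests (edgeR, DESeq2 1.42.0), the replicate number as a block, and each library left out in turn. Sums, shares and rankings used Python 3.11.15 with scipy 1.17.1.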

Additional observations from a re-analysis of the deposited data

How the results depend on the processing

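The count of names at an adjusted p of at most 0.2, planned over all members, was 1 of the 7 that passed the filter (bta-miR-1260b). It was 1 under 12 of 13 alternatives that kept all libraries and 2 with the edgeR quasi-likelihood test and the replicate block, which added bta-miR-1246. With a library left out it ran from 0 to 2: 0 without HS replicate 2 or HS replicate 3, and 2 without control replicate 1, which added bta-miR-2904. Leaving these 2 names out of the count, a restriction chosen after the data were seen, is what makes it 1 under all 13 alternatives (of 5 names, or of 7 with no filter), and 0 to 1 with a library left out. The fits that added bta-miR-1246 or bta-miR-2904 are given for the planned count only and support nothing about either name. For bta-miR-1260b the log2 fold change ran from -1.10 to -0.89 with all libraries and from -1.04 to -0.82 with a library left out, with adjusted p-values of 0.000381 to 0.0708 and 0.0861 to 0.228. With upper quartile factors, which moved the median of all tested miRNAs to -0.18, bta-miR-1291 was at -0.099 and bta-miR-664b at -0.13, both above that median. bta-miR-664b was at -0.12 with the edgeR quasi-likelihood test and -0.062 with DESeq2. With a library left out, bta-miR-1246 ran from -1.11 to 0.37, bta-miR-2904 from 0.54 to 1.47, bta-miR-2478 from 0.011 to 0.62, bta-miR-2887 from -0.57 to 0.19, bta-miR-1291 from -0.15 to 0.40 and bta-miR-664b from -0.35 to 0.49. What moved these values was not tested. Over 133 refits of single names, 116 kept their direction and, where tested, their side of the threshold, 15 changed sign and 2 were no longer past it. Same-numbered libraries deviated from their group means with correlations across miRNAs of 0.421, -0.117 and 0.616, so the numbers were not taken to pair the samples. With the replicate block limma gave bta-miR-1260b an adjusted p of 0.0571 and called 1 name. In that fit the residual SD was 0.0921 for bta-miR-1246 and 5 of 7 names were above the median, against 6 without the block. Leaving out any single library kept that count at 6. The summed level differed by -875.8 normalized CPM (HS minus control), which ran from -3727 to 2177 with a library left out (above 0 without control replicate 1, HS replicate 2 or HS replicate 3) and was 64.9 with bta-miR-1246 left out of the sum.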

Other observations

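Names with neighbouring numbers were counted beside the 9 names. Of the 21 other names from bta-miR-2881 to bta-miR-2904, the numbers around bta-miR-2887, 19 were at 0 in every library, and the other 2 had at most 2 reads in a library. None passed the filter. Of the 19 other names from bta-miR-1224 to bta-miR-1307, 9 were at 0 in every library and 5 passed the filter: bta-miR-1249, bta-miR-1271, bta-miR-1296, bta-miR-1306 and bta-miR-1307. No adjusted p of the 5 was at most 0.2 (limma). bta-miR-1307 had 652 ± 146.9 normalized CPM at 37 °C and 713.1 ± 81.1 at 42 °C, and bta-miR-1271 had 141.5 ± 1.42 and 113.1 ± 7.98 (mean ± SD, n = 3 per group). Their SDs between replicates ran from 0.0722 log2 units for bta-miR-1271 to 0.936 for bta-miR-1249, with a median of 0.257.

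The miRNAs whose centred log2 levels were nearest to those of bta-miR-1246 over the 6 libraries were bta-miR-2332, bta-miR-2340 and bta-miR-122. Their root-mean-square differences were 0.522, 0.532 and 0.584 log2 units, where the profile of bta-miR-1246 itself has a root-mean-square size of 1.12. These differences are large beside that size. bta-miR-2332 had 552.2, 88 and 64.9 normalized CPM at 37 °C, against 421.4, 177.6 and 102.6 at 42 °C (replicates 1, 2 and 3). Nearest to bta-miR-1260b were bta-miR-873, bta-miR-7859 and bta-miR-2440, at 0.145, 0.183 and 0.206 log2 units, against a size of 0.489 for its own profile. bta-miR-873 had 83.5, 108.2 and 80.8 at 37 °C, against 54.7, 46.8 and 50.2 at 42 °C. Nearest to bta-miR-2904 were bta-miR-6775, bta-miR-11980 and bta-miR-2409, at 0.349, 0.352 and 0.42 log2 units, against a size of 0.734 for its own profile, so these differences are large beside the profile itself. bta-miR-11980 had 174.3, 56.9 and 63.8 at 37 °C, against 147.7, 308.9 and 211.6 at 42 °C. It was picked for its likeness, so features that it shares with bta-miR-2904 follow from that choice.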
